A study of Rattus norvegicus with 6 samples.

Results

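The RNA levels of 3 vessel wall genes were followed in rat thoracic aorta, in the spontaneously hypertensive strain SHR: Cdh2 (N-cadherin), Fgf2 (basic fibroblast growth factor) and Pdcd10 (programmed cell death 10). They were chosen by name, as genes of cell adhesion and growth, from the 30 genes that an Agilent catalogue probe on the array identified through a RefSeq accession. Only catalogue probes called well above background on 3 or more arrays were counted as naming a gene. The array carried 38804 different probes in all, of which 50 were catalogue probes. The accessions were NM_031333 for Cdh2, NM_019305 for Fgf2 and NM_001009542 for Pdcd10, each measured by 1 probe printed in 10 spots. In the rat assembly GRCr8, Fgf2 and Pdcd10 lie on chromosome 2 and Cdh2 on chromosome 18. Which part of a transcript each probe covers is not known here.

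The study held 6 arrays, 1 per sample, in 2 groups of 3. Peptide rats were given an oligopeptide of the mushroom Ganoderma lingzhi (called SYP in the labels) by intravenous injection, 5 mg per kg body weight each day for 28 days from an age of 12 weeks. Control rats were given the same volume of saline. Every rat was an SHR, an inbred strain that becomes hypertensive without any intervention, and was 16 weeks old at collection. The samples held no normotensive strain. The labels call the rats female in one field and male in another. They do not say that each array came from a different animal, although the protocol reads that way. If it did not, the p-values would measure technical spread alone.

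N-cadherin is a calcium-dependent adhesion molecule whose outer domains bind the same protein on a neighbouring cell and whose tail is tied to actin through catenins. In the vessel wall it joins smooth muscle cells to one another and to the endothelium. Fgf2 is a growth factor that is held by heparan sulphate in the matrix, acts through receptor tyrosine kinases, and drives the growth and migration of smooth muscle and endothelial cells. Pdcd10, also known as CCM3, is an adaptor that binds kinases of the germinal centre family, and loss of it in endothelium gives cerebral cavernous malformations.

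Whole-wall RNA was measured, so fewer cells of a type and less RNA per cell cannot be told apart. The cell types in the samples could not be checked on their markers. Of 25 marker genes listed for smooth muscle, endothelium, fibroblasts, fat, leukocytes, nerve and blood, 0 had a gene-named probe. Such a probe had to be called well above background on 3 or more arrays, so a dim one was not counted. Of 63 genes in 5 lists for cadherin adhesion, matrix adhesion, FGF signalling, other growth factors and the cavernous malformation complex, 5 had one: the 3 genes followed here, Ptk2b and Gdnf.

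The arrays lay on 2 slides, told apart by their scans. Slide 1 held the 3 controls and peptide 1, and slide 2 held peptide 2 and 3. The 75th percentile of an array's log2 signal, which was subtracted as its scale, lay between 7.81 and 7.97 on slide 1 and at 8.39 and 8.36 on slide 2. The median log2 signal lay between 6.14 and 6.42 on slide 1 and was 6.44 on both arrays of slide 2. Between 95.41% and 98.04% of the probes on an array were well above background.

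All 3 genes were measured well above background in every sample. Every spot of the 3 probes passed that call on each of the 6 arrays. The 10 spots of a probe are technical repeats within 1 sample, and 2 of the Cdh2 spots on peptide 3 were left out as outliers.

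Cdh2 gave a processed signal, before any scaling between arrays, of 643, 206 and 304 on control arrays 1, 2 and 3. On peptide arrays 1, 2 and 3 it gave 603, 335 and 226. Control 1 and peptide 1 were the brightest, and the groups overlapped. The spot-to-spot SD was 4.43% to 6.28% of the mean, so the gap between the brightest and the dimmest array was far wider than the scatter of the spots. The level ranked between percentiles 69.8 and 85.1 of all probes on the array.

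Fgf2 gave a processed signal of 408, 188 and 376 on the control arrays and of 510, 335 and 220 on the peptide arrays. Control 2 was the dimmest array and peptide 1 the brightest, with the other 4 between them. The spot SD was 2.78% to 6.93% of the mean. The level ranked between percentiles 69.4 and 83.5.

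Pdcd10 gave a processed signal of 3660, 1350 and 1170 on the control arrays and of 1730, 1210 and 1640 on the peptide arrays. Control 1 stood above the other 5 arrays, which lay close together. The spot SD was 5.03% to 9.58% of the mean. The level ranked between percentiles 87.2 and 94.2, so this probe was among the brighter ones on every array. Such a rank also depends on how well a probe binds and was not used to set one gene against another.

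**Figure D1:**
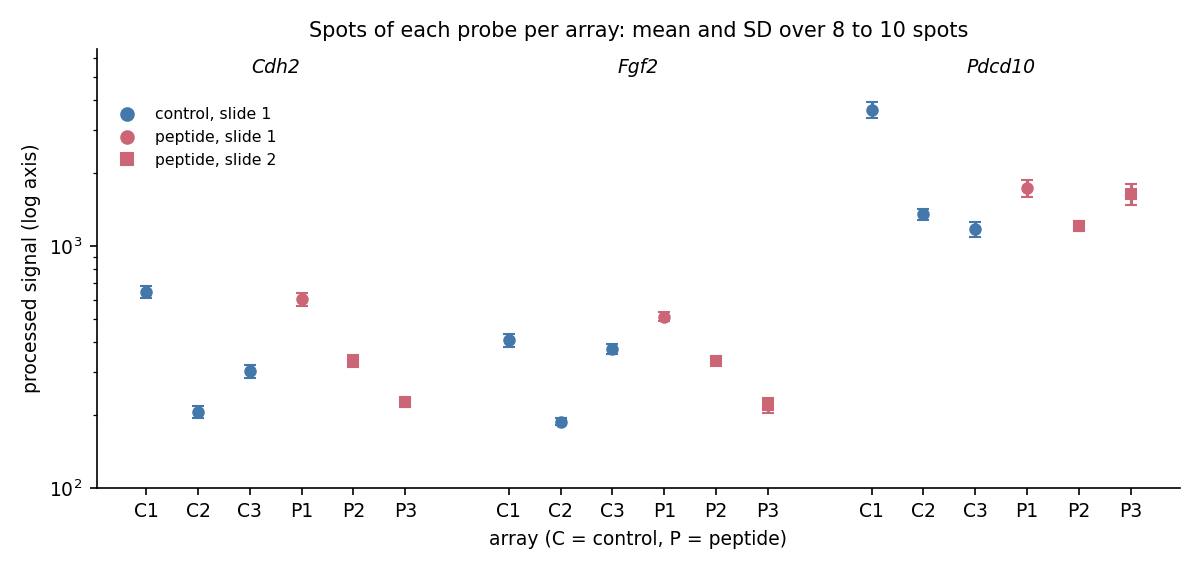
Processed signal of the Cdh2, Fgf2 and Pdcd10 probes on each array (log axis, before scaling between arrays), with points for the mean and bars for the SD over 8 to 10 spots. Cdh2 runs from 206 to 643, Fgf2 from 188 to 510 and Pdcd10 from 1170 to 3660, and the spot bars are short beside the gaps between arrays.

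After scaling, each value is a log2 signal relative to the 75th percentile of its array. Cdh2 then stood at 1.35, -0.12 and 0.38 in controls 1, 2 and 3 and at 1.33, -0.01 and -0.53 in peptide 1, 2 and 3. In each group 1 array was high, and the other 4 lay lower. The largest and smallest of the 6 values were 3.7-fold apart, and the 3 control arrays alone spanned 2.78-fold. The SD over the 6 arrays was 0.79, larger than that of 94.8% of the 37723 probes tested.

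Fgf2 stood at 0.69, -0.25 and 0.69 in the controls and at 1.09, 0 and -0.58 in the peptide group. The peptide group held both the highest and the lowest value. The 6 arrays spanned 3.17-fold, the controls 1.92-fold, and the SD of 0.65 over the 6 arrays was larger than that of 87.1% of tested probes.

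Pdcd10 stood at 3.86, 2.59 and 2.32 in the controls and at 2.84, 1.84 and 2.32 in the peptide group. Control 1 was the highest, and peptide 2 the lowest. The 6 arrays spanned 4.05-fold, the controls 2.9-fold, and the SD of 0.69 was larger than that of 90.3% of tested probes. The largest spot SD on the log2 scale was 0.092 for Cdh2, 0.1 for Fgf2 and 0.14 for Pdcd10, or 11.6%, 15.4% and 20.3% of the SD between arrays.

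**Figure D2:**
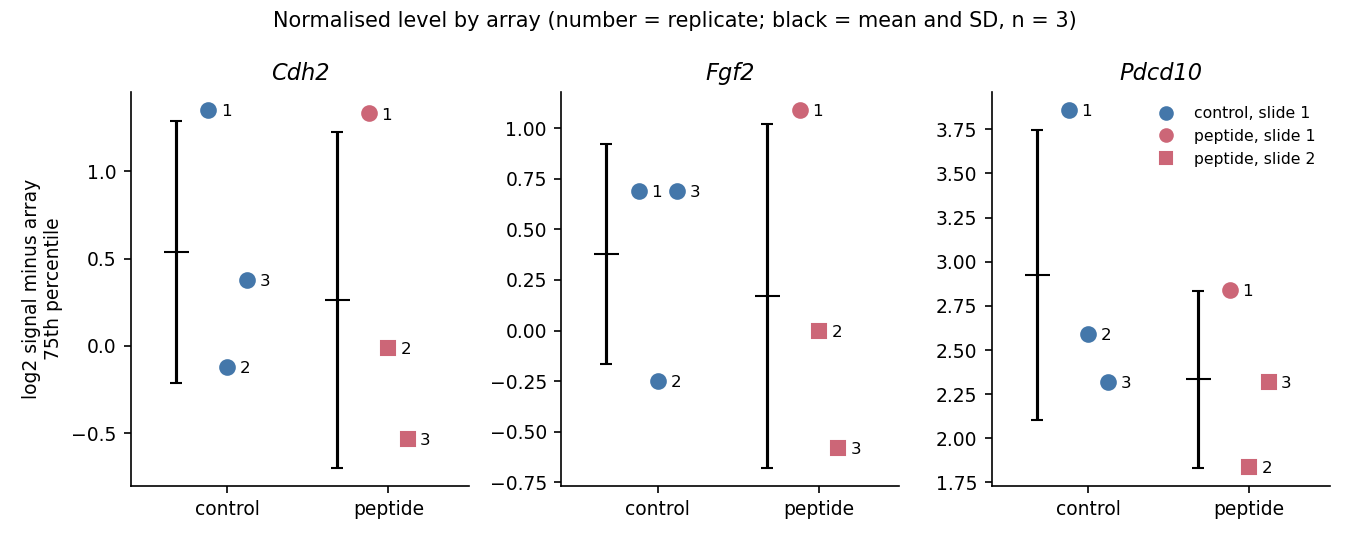
Scaled log2 signal of each gene by array and group, with circles for slide 1, squares for slide 2, and black bars for the group mean and SD (n = 3). Peptide 1 (1.33, 1.09 and 2.84 for Cdh2, Fgf2 and Pdcd10) lies above peptide 2 and 3 in each panel, and the groups overlap in each.

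The comparison of treated with untreated rats asks whether the peptide altered RNA levels in the aorta. None of the 3 genes passed the test. The group means were lower in the peptide group for each, by amounts within the spread between arrays.

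The adhesion gene Cdh2 averaged 0.54 ± 0.75 in controls against 0.26 ± 0.96 with peptide (SD, n = 3 each). The difference was -0.27 on the log2 scale (SE 0.51), a ratio of 0.827, with a 95% interval of the ratio from 0.381 to 1.79. By limma the unadjusted p was 0.598 and the p adjusted over all tested probes 0.858. A lower difference was found for 42.9% of tested probes. The difference was -0.07 after median scaling, and its sign turned without control 1 (0.13) or peptide 3 (0.12).

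The growth factor Fgf2 averaged 0.38 ± 0.54 in controls against 0.17 ± 0.84 with peptide (SD, n = 3 each). The difference was -0.21 (SE 0.44), a ratio of 0.865, with a 95% interval from 0.439 to 1.7. The limma p was 0.644 and the adjusted p 0.878. The median difference over all tested probes was itself -0.214, so Fgf2 sat at the middle of the array. Without peptide 3 its sign turned (0.16).

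The adaptor Pdcd10 averaged 2.92 ± 0.82 in controls against 2.33 ± 0.5 with peptide (SD, n = 3 each). The difference was -0.59 (SE 0.43), a ratio of 0.664, with a 95% interval from 0.344 to 1.28. The limma p was 0.198 and the adjusted p 0.757. A lower difference was found for 11.2% of tested probes. Relative to the median difference over all tested probes (-0.214), Pdcd10 was at -0.38. After median scaling its difference was -0.39. Leaving out control 1, the brightest array, left a difference of -0.12.

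Over all 37723 tested probes, limma found 0 past an adjusted p of 0.05 (0%). At an unadjusted p under 0.05 there were 1068 (2.83%), and 0 of the 3 genes were among them. Groups that did not overlap were found for 5.47% of probes, and again for 0 of the 3. All 3 intervals include a fall of 2-fold, so an effect of that size is not excluded by these arrays. The intervals leave out the slide. With the slide as a block the log2 differences were 0.79 (SE 0.56) for Cdh2, 0.71 (SE 0.47) for Fgf2 and -0.08 (SE 0.6) for Pdcd10. Their intervals ran from -0.54 to 2.12, from -0.4 to 1.82 and from -1.49 to 1.32, in the same order. A rise of 2-fold lies within all 3, so it is not excluded for any of the 3 genes. A fall of 2-fold lies within the blocked interval of Pdcd10 but not within those of Cdh2 and Fgf2. The blocked intervals rest on peptide 1 against the controls.

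For each gene, peptide 2 and 3, the rats on slide 2, lay below the control mean. The lower means of the peptide group also varied with the array left out. Without control 1 the differences were 0.13 for Cdh2, -0.05 for Fgf2 and -0.12 for Pdcd10. Without peptide 3 they were 0.12, 0.16 and -0.58, in the same order. Without control 2 they were further from 0, at -0.61, -0.52 and -0.76. The source of the lower means was not tested. Relative to the control mean, Cdh2 was at 0.79 in peptide 1, on the slide of the controls, and at -0.54 and -1.07 in peptide 2 and 3. Fgf2 was at 0.71, -0.38 and -0.95. Both genes thus lay above the controls' mean in the treated rat of slide 1 and below it in the treated rats of slide 2. Pdcd10 was at -0.08, -1.08 and -0.61, below the mean in all 3 rats, although by little in peptide 1.

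With the slide as a block, the comparison rests on peptide 1 against the controls. The difference became 0.79 (SE 0.56) for Cdh2, 0.71 (SE 0.47) for Fgf2 and -0.08 (SE 0.6) for Pdcd10, with a limma adjusted p of 1 for each. Within slide 1 the values were the same, with SE of 0.58, 0.51 and 0.61. With this block 0 of 37704 probes passed the adjusted threshold (0%), and 632 (1.68%) had an unadjusted p under 0.05, with 0 of the 3 genes among them.

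Among the 3 peptide rats, peptide 1 exceeded the mean of peptide 2 and 3 by 1.6 for Cdh2, 1.38 for Fgf2 and 0.76 for Pdcd10 on the log2 scale. Peptide 1 was the highest of the 3 for 25 of the 30 named genes and for 63.1% of all tested probes. After the scaling by the 75th percentile, the median of the tested probes stood at -1.49 on peptide 1. It stood at -1.87 and -1.84 on peptide 2 and 3. The part of the scaling in the gaps between the peptide arrays was not tested. Nor was that of the slide, because slide 2 held no control.

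**Figure D3:**
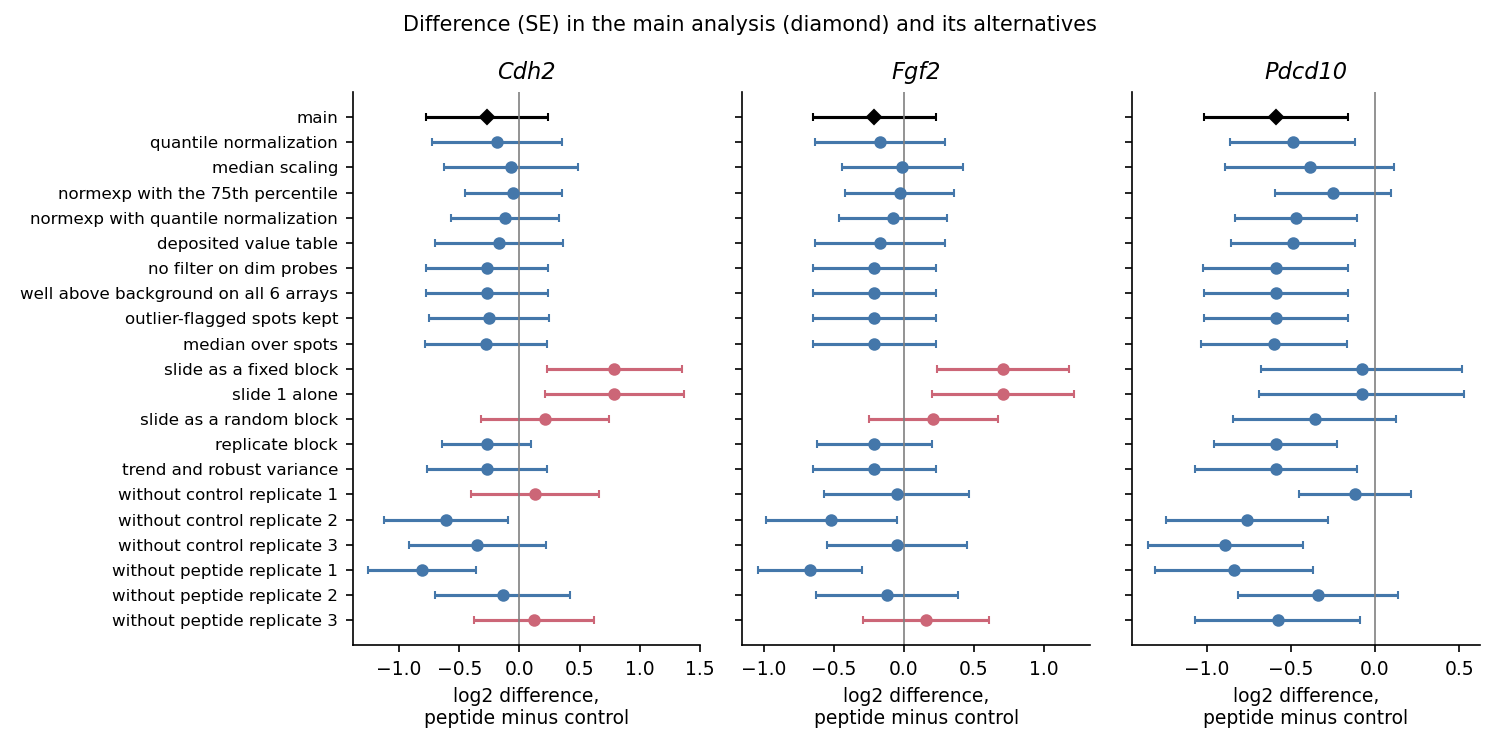
Log2 difference of peptide minus control with its SE for each gene, in the main analysis (diamond) and its 20 alternatives. Values of Cdh2 and Fgf2 lie on both sides of 0, up to 0.79 and 0.71 with the slide as a fixed block, and those of Pdcd10 lie between -0.89 and -0.08.

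Cdh2 and Fgf2 varied together over the 6 arrays by Pearson r. That call was lost after median scaling (exact permutation adjusted p = 0.0667) and not reached by Spearman rho. The permutations ran over all 6 arrays without regard to slide, so shifts shared by the arrays of a slide enter these p-values. The relations of either with Pdcd10 did not pass the test. The order of the arrays by Cdh2 was control 1, peptide 1, control 3, peptide 2, control 2 and peptide 3. By Fgf2, peptide 1 came first and control 1 and 3 next, and the last 3 were the same arrays in the same order. Over the 6 arrays Pearson r was 0.92 (exact permutation p = 0.00972, two-sided, adjusted p = 0.0292 over the 3 pairs of genes) and Spearman rho was 0.94 (exact permutation p = 0.0167, adjusted p = 0.05). Without control 1 and peptide 1, the arrays farthest from the median of Cdh2, r was 0.97 over 4 arrays. It was 0.84 within the 4 arrays of slide 1, and 0.85 after each slide's mean was subtracted.

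All pairs share the same arrays and scaling, so many probes correlate. The r of Cdh2 with the tested probes had a median of 0.26 and a 95th percentile of 0.88. An r of at least that between the 2 genes was found for 2.85% of probes with Cdh2 and for 1.56% with Fgf2.

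For Cdh2 and Pdcd10, Pearson r was 0.74 (exact permutation p = 0.0694, adjusted p = 0.104) and Spearman rho 0.71 (exact permutation p = 0.136, adjusted p = 0.175). This relation rested on control 1 and peptide 1, because r was -0.12 without them. Pearson r was 0.7 within the 4 arrays of slide 1, and 0.57 after each slide's mean was subtracted.

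For Fgf2 and Pdcd10, Pearson r was 0.48 (exact permutation p = 0.349, adjusted p = 0.349) and Spearman rho 0.66 (exact permutation p = 0.175, adjusted p = 0.175). Pearson r was 0.5 without peptide 1 and 3, the arrays farthest from the median of Fgf2. It was 0.24 within slide 1, and 0.11 after each slide's mean was subtracted. On slide 2, peptide 3 was lower than peptide 2 for Cdh2 and Fgf2 and higher for Pdcd10.

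**Figure D4:**
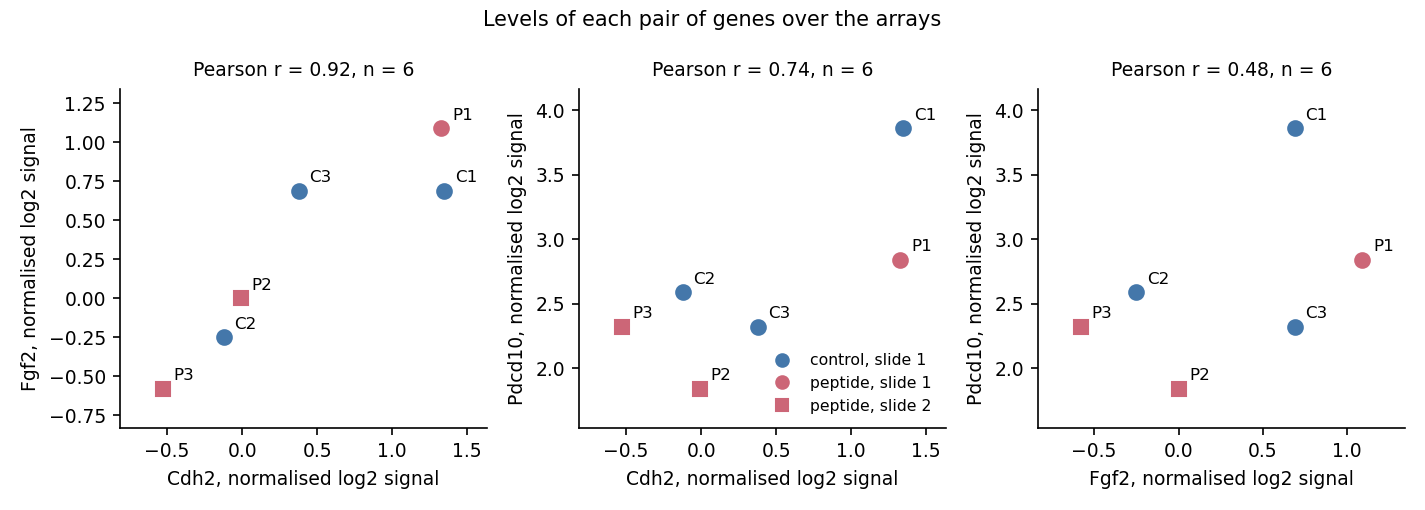
Scaled log2 signal of each pair of genes, with a point for each of the 6 arrays (C control, P peptide, circles slide 1, squares slide 2). Cdh2 and Fgf2 lie near a line (r = 0.92), and the relation of Cdh2 with Pdcd10 (r = 0.74) is carried by C1 and P1.

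Each gene was also set against the 29 other named genes over the 6 arrays. The closest to Cdh2 were Pld1, a phospholipase D that makes phosphatidic acid (r = 0.99), and Pdk3, a kinase that inhibits pyruvate dehydrogenase (r = 0.94). Within the 4 arrays of slide 1 these values were 0.99 and 0.93. Pld1 stood at 0.13, -1.31 and -0.66 in the controls and at 0.41, -1.02 and -1.58 in the peptide group, so its high arrays were those of Cdh2. Fgf2 was closest to the same Pld1 (r = 0.94) and to Cdh2.

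The closest to Pdcd10 were Magoh, a core protein of the exon junction complex (r = 0.97), and Pop7, a subunit of RNase P and RNase MRP (r = 0.96), both at 0.99 within slide 1. Magoh stood at 3.7, 2.2 and 2.1 in the controls and at 2.59, 1.93 and 2.06 in the peptide group. Control 1 was the highest for both genes, followed by peptide 1 and control 2. The lowest r was that with the nucleoside transporter Slc28a2 for Cdh2 (-0.28) and Fgf2 (-0.59), and that with the RNA-binding ubiquitin ligase Mex3c for Pdcd10 (-0.59). Correlations with these partners are descriptions over 6 arrays and were not tested.

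The other named genes of the adhesion and growth lists were 2, and 0 passed the test in either direction. Ptk2b, a kinase related to focal adhesion kinase, stood at -1.13, -1.51 and -1.09 in the controls and at -1.28, -1.25 and -2.11 in the peptide group. The difference of -0.3 (SE 0.32) had a limma adjusted p of 0.775, with peptide 3 alone below all controls. Gdnf, a neurotrophic factor of the TGF-beta superfamily, stood at -2.23, -2.39 and -2.03 in the controls and at -2.01, -3.18 and -3.38 in the peptide group. The difference of -0.64 (SE 0.37) had a limma adjusted p of 0.757 and turned to 0.2 (SE 0.31) in the blocked fit. Gdnf too was lower in peptide 2 and 3 than in peptide 1, while the SD of its controls was 0.18, against 0.75 for Cdh2 and 0.54 for Fgf2.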

How the data were processed

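The authors deposited spot intensity for each array, made with Agilent Feature Extraction 11.0.1.1, per the file headers, background-subtracted and not scaled between arrays. The authors' deposited value table holds log2 values whose columns have equal quartiles. Each of its columns correlated with its own array at r of at least 0.9974, and its step from spots to probes is not known here.

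Control spots and outlier spots were left out, log2 spots of a probe were averaged, and each array was lowered by its 75th percentile. Probes called above background on 3 or more arrays (37723) entered a two-sided limma fit (version 3.58.1, R 4.3.3, lmFit with eBayes), with Benjamini-Hochberg adjustment over them all and a threshold of 0.05, and 53 of them lacked a value on some array. The fit was run on simulated data with independent arrays and no slide effect, so that run does not cover the slides of these data. Exact permutation p-values came from Python 3.11.15 and figures from matplotlib 3.10.9. Genes were named from accessions through the RefSeq table of GRCr8.

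The 3 genes, the lists and the alternatives were chosen with earlier results of these data known. The naming rule took the 3 genes, the 2 named genes most correlated and the 1 least correlated with each, and every list gene with a named probe. Normexp used median spot and background signals with an offset of 50. No pair of arrays was identical. The number of arrays limits the precision.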

Additional observations from a re-analysis of the deposited data

How the results depend on the processing

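Of 20 alternatives, 20 kept the sign of the Pdcd10 difference, 15 that of Cdh2 and 16 that of Fgf2, and 0 of the 3 genes passed the adjusted threshold in any of them (smallest limma adjusted p = 0.287 for Cdh2, 0.291 for Fgf2 and 0.292 for Pdcd10). The slide as a fixed block, and slide 1 alone, turned Cdh2 to 0.79 and Fgf2 to 0.71, and a random slide block turned both to 0.21; these follow from peptide 1 being the treated array on the slide of the controls. Leaving out 1 array gave -0.81 to 0.13 for Cdh2 (above 0 without control 1 or peptide 3, at 0.13 and 0.12), -0.67 to 0.16 for Fgf2 (0.16 without peptide 3) and -0.89 to -0.12 for Pdcd10. Without peptide 1, slide and peptide cannot be told apart. After median scaling the Fgf2 difference was -0.01. The alternatives on dim probes and the trend and robust variance fit the same values, so they cannot change a difference. Slide 1 alone repeats the differences of the fixed block. The counts of kept signs include these settings. The replicate block cannot change the differences, because each number occurs once in each group (-0.27, -0.21 and -0.59 for Cdh2, Fgf2 and Pdcd10). It changed the SE, to 0.37, 0.411 and 0.366, from 0.505, 0.442 and 0.429 in the main analysis. With it 0 probes passed the threshold. Deviations of same-numbered arrays from their group means, over all tested probes, correlated at -0.012, -0.189 and -0.235. No control correlated best with its own number. The peptide deviations also hold the split between slides, so this check cannot decide whether the arrays were paired. Leaving out 1 array gave 0 to 4 probes past the threshold, with the 4 found without control 2, and the other alternatives run for that count gave 0 (the median over spots was not run for it). The r of Cdh2 with Fgf2 was 0.92 after median scaling (exact permutation adjusted p = 0.0667, against 0.0292 to 0.0458 in the other 3 scalings, background corrections or tables), 0.84 in slide 1 and 0.97 without control 1 and peptide 1. With 4 arrays the smallest exact p is 0.0833, so the last 2 have no test. That of Cdh2 with Pdcd10 was -0.12 without control 1 and peptide 1. The cause was not tested. The ranks among all probes moved by less than the spread between arrays with normexp and in the deposited table.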
